A study of Homo sapiens with 6 samples.

Results

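The genes described are 10 regulators of the passage from G1 into S phase, namely the D-type cyclin genes CCND1, CCND2 and CCND3, the cyclin E1 gene CCNE1, the kinase genes CDK2, CDK4 and CDK6, and the inhibitor genes CDKN1A (p21), CDKN1B (p27) and CDKN2A. They were chosen by name, each through the transcript cluster whose platform annotation gives that gene alone, with the brightest cluster kept where a gene had several. A transcript cluster is the set of array probes that stand for 1 transcribed locus. Of the 10 genes, 9 had a cluster of their own, among 14232 genes tested in all. CDK4 had none, because its cluster is annotated to both CDK4 and TSPAN31. The arrays came from Ishikawa H cells, a line of high differentiation from a grade 1 endometrioid adenocarcinoma of the endometrium, for which the labels give a p53 mutation in both groups. In the knockdown group (3 arrays) MTDH was silenced with a stable short hairpin RNA (shRNA), and the control group (3 arrays) is labelled MTDH control. The study describes its controls as carrying a control shRNA, which the labels do not state. The treatment protocol in the labels of these samples describes puromycin selection and the growth of separate clones chosen by Western blot, so the arrays of a group may come from 1 clone, and a difference between clones and an effect of the shRNA cannot be told apart. Apart from puromycin for selection, the labels name no drug for either group. Each p-value rests on the spread among these 6 arrays alone, part of which may be technical.

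D-type cyclins are made when growth factors act on a cell. They bind CDK4 and CDK6 and begin the phosphorylation of the retinoblastoma protein RB1, which then releases E2F factors, and these switch on cyclin E1 and the genes of DNA synthesis. Cyclin E1 with CDK2 completes the phosphorylation of RB1. The inhibitor p16, from CDKN2A, blocks CDK4 and CDK6, whereas p21 and p27 bind cyclin and kinase together and restrain CDK2 above all. In the endometrium estrogen drives epithelial division, and cyclin D1 is among the genes that respond.

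MTDH itself lay lower in each knockdown array (5.77, 5.89 and 5.84 on the log2 scale) than in each control array (6.89, 7.04 and 6.63), with a log2 fold change of -1.02 (SE 0.17, limma, adjusted p = 0.029). The direction is the one the labels give. The value lay between -1.13 and -0.92 with any 1 array omitted, but the call was lost without control replicate 1 (adjusted p = 0.16) or any one knockdown array (0.15, 0.12 and 0.11), with all rows tested (0.0997) and after median centring (0.096). The epithelial markers EPCAM and CDH1 lay between 6.89 and 7.74 and between 6.25 and 6.77, and 7 of 10 epithelial markers were above the median of every array. The other 3, KRT7 and the hormone receptor genes ESR1 and PGR, were below it on every array. Of 18 markers of fibroblasts and smooth muscle, endothelium or blood, 15 were below the array medians throughout, and COL1A1, DES and CD68 were above them. Control replicate 3 stood apart, with a correlation of at most 0.955 with any other array across genes, which are not independent replicates. All other pairs reached at least 0.959.

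Of the 9 genes, CCND1 alone passed the test across all genes (limma, Benjamini-Hochberg adjusted p under 0.05), and it fell. Over all genes tested, 0.597% passed in either direction and 0.225% passed as lower. The log2 values of CCND1 were 8.44, 8.60 and 8.33 in control cells, against 7.57, 7.43 and 7.56 after knockdown. Every knockdown array was lower than every control array, as in 11.2% of all genes tested, and the gap of the groups was wider than the range within either. The group means were 8.46 ± 0.14 and 7.52 ± 0.08 (SD, n = 3), and they differed by -0.93 on the log2 scale (SE 0.16, 95% interval -1.29 to -0.58, adjusted p = 0.034). CCND1 transcript was thus 1.91-fold lower in the knockdown cells, with an interval from 1.495-fold to 2.44-fold. Whether fewer cells expressed it or each cell held less of it cannot be told apart in RNA from whole cultures. The mean level of the 10 epithelial markers was also lower after knockdown, at 5.57 to 5.86 against 5.90 to 5.93 in the controls, though no marker passed (the keratin gene KRT19 came nearest, at -0.87 with an adjusted p of 0.084). The 10 markers went both ways, with 8 values negative and those of EPCAM (0.36) and CDH1 (0.28) positive. KRT8 (-0.55) and KRT19 were lower without overlap, as were 11.2% of all genes, and CDH1 was higher without overlap, as were 8.81%. With all arrays and the values as given, negative values were no trait of epithelial markers alone. They made up 87.5% of the fibroblast and smooth muscle markers, 80% of the endothelium markers, 80% of the blood markers and 60.7% of all genes. After quantile normalization, after median centring and without control replicate 3, 4 of 8 fibroblast and smooth muscle markers were negative. The epithelial markers then had 7, 7 and 8 of 10 negative. The endothelium markers had 4 of 5 each time and the blood markers 4, 4 and 3 of 5. The part of the epithelial markers in the fall of CCND1 was not tested.

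The size of the fall held when any 1 array was left out, between -0.999 and -0.86, but the call did not. The adjusted p was 0.16 when control replicate 1 was omitted, and 0.14, 0.19 and 0.12 when knockdown replicates 1, 2 and 3 were omitted in turn. It was also 0.104 when all rows of the table were tested and 0.094 with columns centred on their median.

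**Figure D1:**
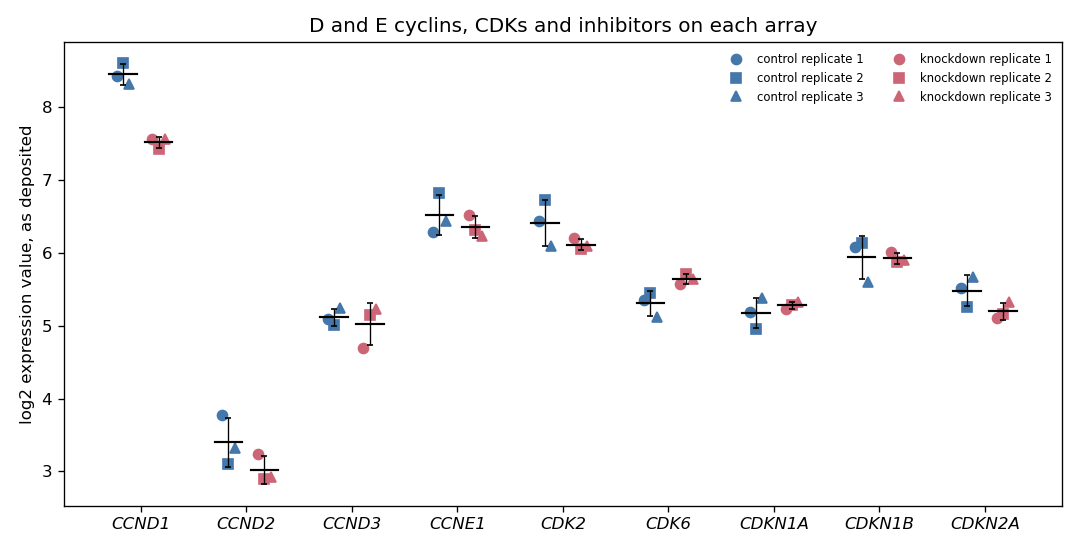
Log2 expression value (vertical axis) of the 9 measured genes on each of the 6 arrays, controls in blue and knockdown in red, with the group mean (bar) and SD (whiskers). The knockdown arrays lie below all controls for CCND1 and above all controls for CDK6, and the groups overlap for the other 7 genes.

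A pair of further clusters carries the name CCND1 together with that of LTO1, its neighbour, so that their signal belongs to no single gene. The first read 6.01, 5.96 and 5.93 in control cells, against 5.71, 5.33 and 5.63 after knockdown. The second read 4.86, 5.03 and 5.12 against 4.47, 4.40 and 4.61. Both were lower in all 3 knockdown arrays without overlap, by log2 fold changes of -0.41 and -0.51. Neither passed over all 22011 rows (limma, adjusted p = 0.42 and 0.35). The same lack of overlap held for 11.2% of all genes tested, and its share over all rows was not worked out.

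The genes that flank CCND1 on chromosome 11 mostly had negative values too, of smaller size. Among the 5 nearest measured genes on each side, 9 of 10 log2 fold changes were below 0 and their median was -0.28, where the median of the 963 measured genes of that chromosome was -0.15 and that of all genes -0.08. None of the 10 passed the test, and the fall of CCND1 was larger than that of each of them, the lowest being -0.48 for MRGPRF. On the side of lower coordinates, TPCN2, a lysosomal ion channel gene, had -0.30 and MYEOV, a gene overexpressed in some myelomas, -0.37. On the other side the fibroblast growth factor genes FGF19, FGF4 and FGF3 had -0.23, -0.15 and -0.18. MYEOV, the chloride channel gene ANO1 (-0.33) and the death domain adaptor gene FADD (-0.27) were lower in all knockdown arrays without overlap. The same held for 11.2% of all genes tested. The part of the neighbourhood in the fall of CCND1 was not tested.

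**Figure D2:**
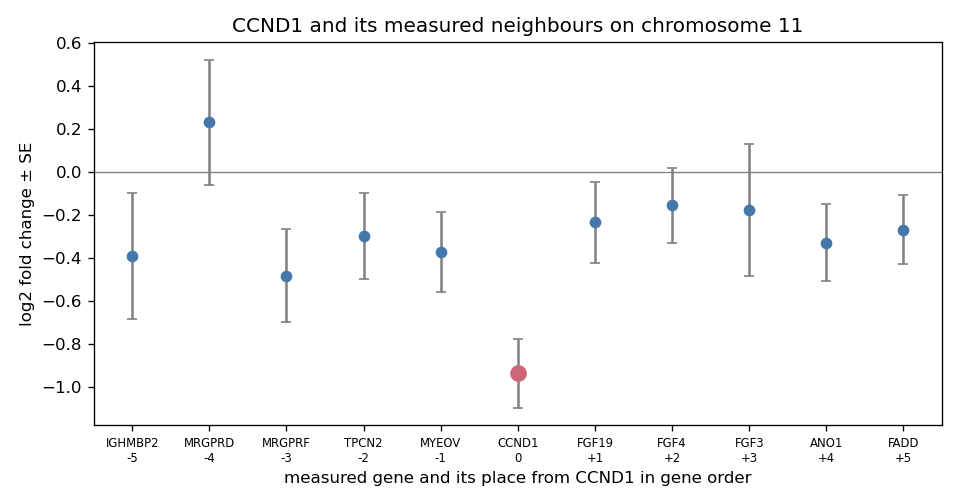
Log2 fold change with its standard error (vertical axis) of CCND1 and of the 5 nearest measured genes on either side, in gene order along chromosome 11 (horizontal axis). CCND1, in red, lies at -0.93, and its neighbours lie between -0.48 and 0.23.

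The genes whose log2 profile lay nearest to that of CCND1 were sought by the root mean square difference of values centred on each gene's own mean, over the 6 arrays. The nearest of all genes was MTDH, at a distance of 0.097, followed by the actin-binding protein gene ABLIM1 at 0.0999, the microtubule crosslinking factor gene MTCL1 at 0.11, the membrane-bound signal protein gene BASP1 at 0.12 and HCLS1, which encodes a cortactin-like protein of blood cells, at 0.12. The median distance over all genes was 0.49. These 5 genes had log2 fold changes between -1.02 and -0.76. A measure over 6 arrays in 2 groups mostly finds genes with a like difference between the groups.

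CCND2 and CCND3, the other D-type cyclin genes, did not pass. CCND2 read 3.77, 3.11 and 3.32 in control cells, against 3.24, 2.89 and 2.92 after knockdown. The groups overlapped through control replicate 2 and knockdown replicate 1. All 6 CCND2 values were below the median of their array, where such arrays compress differences. Its log2 fold change was -0.38, with an interval of -0.84 to 0.07 (adjusted p = 0.41), so that these data leave room for a decrease of up to 1.78-fold. It was -0.197 without control replicate 1, the highest array, and -0.53 without control replicate 2. CCND3 read 5.10, 5.01 and 5.24 in control cells, against 4.70, 5.16 and 5.23 after knockdown. Knockdown replicate 1 was the low one, and without it the log2 fold change turned from -0.09 to 0.07. It was -0.03 without control replicate 3. The interval with all arrays was -0.50 to 0.32 (adjusted p = 0.82).

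Within each array, the log2 value of CCND1 minus that of CCND2 changed by -0.55 between the groups, and CCND1 minus CCND3 by -0.85. In both, all 3 knockdown arrays lay below all 3 controls. The exact permutation test (two-sided) gave p = 0.10 for each, the smallest value that 3 arrays against 3 can give, and 0.20 after adjustment over the 4 pairs of relatives compared. The difference between CCND2 and CCND3 changed by -0.29 (exact permutation test, p = 0.50). This test cannot fall below 0.05 with 3 arrays a group, so it leaves unequal change of CCND1 and its relatives undecided.

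The cyclin E1 gene CCNE1, which acts after the D-type cyclins and is itself switched on by E2F, did not pass. It read 6.29, 6.82 and 6.45 in control cells, against 6.53, 6.31 and 6.24 after knockdown. The groups overlapped, and control replicate 2 was the highest of the 6. The log2 fold change was -0.16, with an interval of -0.57 to 0.25 (adjusted p = 0.67), and -0.01 without control replicate 2.

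Of the kinase genes, CDK6 was higher in every knockdown array and CDK2 was not separated. CDK6, a partner of the D-type cyclins, read 5.36, 5.45 and 5.12 in control cells, against 5.58, 5.71 and 5.65 after knockdown. The groups did not overlap. Of the 9 genes, 1 (CDK6) was higher without overlap, as were 8.81% of all genes tested, and 1 (CCND1) was lower without overlap. The log2 fold change of CDK6 was 0.34, with an interval of -0.02 to 0.70 (adjusted p = 0.38). Control replicate 3 was its lowest control, and the value was 0.24 without that array and 0.41 without control replicate 2. The measured genes around CDK6 on chromosome 7 leaned the same way, with 8 of 10 positive and a median of 0.26, and AKAP9, GATAD1 and SAMD9 were also higher without overlap.

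CDK2, the partner of cyclin E1, read 6.44, 6.73 and 6.10 in control cells, against 6.20, 6.05 and 6.09 after knockdown. The 3 knockdown arrays lay within 0.15 of each other and the controls spread over 0.63, so that control replicate 3 fell among the knockdown values. The log2 fold change was -0.30, with an interval of -0.72 to 0.11 (adjusted p = 0.46), and it ran from -0.47 without control replicate 3 (adjusted p = 0.32) to -0.15 without control replicate 2 (adjusted p = 0.63). The cluster shared by CDK4 and TSPAN31 read 7.78, 8.01 and 7.26 in control cells, against 7.61, 7.59 and 7.83 after knockdown. The spread of the controls enclosed the knockdown arrays, and the log2 fold change was -0.01, with an interval of -0.51 to 0.4996. What part of that signal belongs to CDK4 is not known.

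None of the 3 inhibitor genes passed. CDKN1A, which encodes p21, a target of p53, read 5.19, 4.96 and 5.38 in control cells, against 5.23, 5.29 and 5.33 after knockdown. All 3 knockdown values fell inside the range of the controls. Its log2 fold change was 0.11, with an interval of -0.27 to 0.48 (adjusted p = 0.76), so that an increase above 1.39-fold or a decrease beyond 1.20-fold lay outside the interval. The value was 0.21 without control replicate 3 and -0.0016 without control replicate 2. CDKN1B, which encodes p27, read 6.08, 6.14 and 5.61 in control cells, against 6.02, 5.87 and 5.90 after knockdown. The knockdown values again fell inside the control range, and the log2 fold change of -0.01 had an interval of -0.42 to 0.396 (adjusted p = 0.98). Its sign depended on single arrays, at -0.18 without control replicate 3 and 0.09 without control replicate 2. The within-array difference of CDKN1A and CDKN1B changed by 0.12 (exact permutation test, p = 0.70).

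CDKN2A is read here by 1 cluster although it has separate start sites for the transcripts of p16 and of ARF, a protein that stabilises p53, so that the values may mix both. It read 5.52, 5.26 and 5.67 in control cells, against 5.11, 5.16 and 5.33 after knockdown. Control replicate 2 lay below knockdown replicate 3, and the other arrays were separated. The log2 fold change was -0.29, with an interval of -0.67 to 0.095 (adjusted p = 0.46), and it ran from -0.399 without control replicate 2 to -0.19 without control replicate 3. CDKN2B, the neighbouring gene for p15, had -0.17 (adjusted p = 0.62), and the antisense gene CDKN2A-AS1 had -0.28 (adjusted p = 0.59).

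Promoter sequences, the 250 bases before a start site in RefSeq (build GRCh38.p14), were at hand for 7 of the 10 genes, namely CCND3, CCNE1, CDK4, CDK6, CDKN1A, CDKN1B and CDKN2A. Those of CCNE1 and CDKN1A are shown because they are textbook targets of E2F and of p53, and both of CDKN2A because 1 cluster reads both transcripts. Capitals mark the motifs searched on both strands, the GC box (GGGCGG), the E box (CACGTG), the TATA box (TATAAA), the TCF/LEF core (CTTTGA), the cyclic AMP element (TGACGTCA) and E2F sites (TTTCCCGC, TTTGGCGC, TTTCGCGC or TTTGCCGC). Of these, only the GC box occurred in the 4 windows, so every capital run belongs to it. Sites of p53, E2F sites of other letters and bases further from the start were not searched. The windows therefore do not show that CCNE1 or CDKN1A lacks such sites.
CCNE1 (chr19:29811741-29811990, plus strand): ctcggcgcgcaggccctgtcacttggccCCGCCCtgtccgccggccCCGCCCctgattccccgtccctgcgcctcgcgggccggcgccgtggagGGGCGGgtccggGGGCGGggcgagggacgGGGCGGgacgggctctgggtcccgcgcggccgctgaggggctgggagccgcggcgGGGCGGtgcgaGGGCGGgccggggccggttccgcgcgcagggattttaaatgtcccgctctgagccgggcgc
CDKN1A (chr6:36678464-36678713, plus strand): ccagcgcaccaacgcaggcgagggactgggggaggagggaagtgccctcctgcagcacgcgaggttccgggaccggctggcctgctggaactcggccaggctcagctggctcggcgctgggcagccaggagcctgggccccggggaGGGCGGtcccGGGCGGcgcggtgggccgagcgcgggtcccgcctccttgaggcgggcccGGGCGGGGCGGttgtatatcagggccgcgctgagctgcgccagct
CDKN2A, start of the ARF transcript (chr9:21995325-21995574, minus strand): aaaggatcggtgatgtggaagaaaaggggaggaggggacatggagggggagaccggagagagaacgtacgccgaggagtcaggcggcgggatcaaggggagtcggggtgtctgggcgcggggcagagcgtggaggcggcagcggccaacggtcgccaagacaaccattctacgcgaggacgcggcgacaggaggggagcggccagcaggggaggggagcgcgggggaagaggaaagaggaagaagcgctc
CDKN2A, start of the p16 transcript (chr9:21974858-21975107, minus strand): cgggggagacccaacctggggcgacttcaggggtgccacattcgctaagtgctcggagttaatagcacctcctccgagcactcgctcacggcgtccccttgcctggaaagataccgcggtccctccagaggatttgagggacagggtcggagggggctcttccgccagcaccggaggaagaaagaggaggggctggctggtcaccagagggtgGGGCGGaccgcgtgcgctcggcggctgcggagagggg

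CCNE1 had 7 GC boxes in its window and CDKN1A had 4, the last 2 of which overlap. The ARF start had 0 and the p16 start 1. Of 35116 promoter windows of the same length, 42.6% held at least 1 GC box, 2.79% an E2F site of these letters, 10.7% a TATA box, 6.34% an E box, 11.2% a TCF/LEF core and 1.65% a cyclic AMP element. The 4 windows lie before genes whose values did not pass the test.

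**Figure D3:**
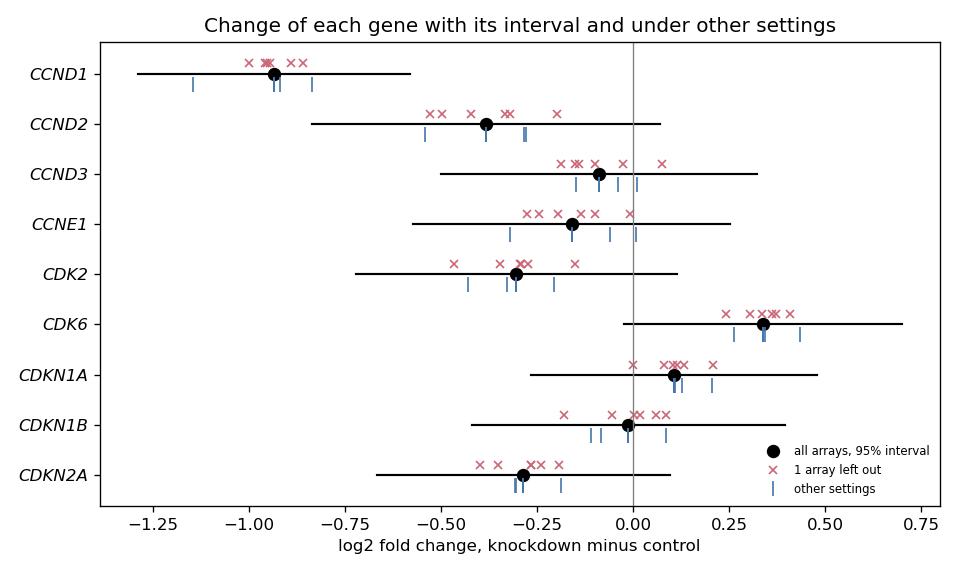
Log2 fold change (horizontal axis) of each of the 9 measured genes, with the 95% interval of the fit on all arrays (black), the values without 1 array (red crosses) and the values under other processing (blue bars). The interval leaves out 0 for CCND1 and includes it for the other 8 genes, and CCND3, CCNE1, CDKN1A and CDKN1B have values on both sides of 0.

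Over the 9 genes, 7 log2 fold changes were negative, with a median of -0.16, while 60.7% of all genes were negative with a median of -0.08. With columns centred on their median, 5 of the 9 were negative, since CCND3 and CDKN1B turned positive. The controls spread more widely than the knockdown arrays in 8 of the 9 genes, as in 67.7% of all genes. The exception was CCND3.

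The wider G1/S network was read through lists of genes by role. The lists were chosen with earlier results of these data known, so a gene that passed within a list is no independent finding. Among 13 measured genes of the RB and E2F family, E2F5 passed the test as higher and none as lower, where 0.597% of all genes passed. The family had 6 positive and 7 negative values. E2F5, a repressor-type E2F that pairs with the RB relatives p107 and p130, read 4.35, 4.76 and 4.10 in control cells, against 5.75, 5.81 and 5.50 after knockdown. The groups were far apart, with a log2 fold change of 1.28 ± 0.199 (SE, adjusted p = 0.0197). The call was lost without control replicate 1 (adjusted p = 0.12) or without any one of the knockdown arrays (0.11, 0.11 and 0.052), and the adjusted p was 0.051 after median centring, 0.052 after quantile normalization and 0.098 with all rows tested. RB1 had -0.48 (adjusted p = 0.24), E2F1, an activator, -0.37 (adjusted p = 0.39) and E2F7, a repressor, -0.42 (adjusted p = 0.27), each lower in all knockdown arrays without overlap. TFDP2, a partner of E2F factors, had 0.81 (adjusted p = 0.29) and was higher without overlap. Of the 13 genes, 3 were thus lower and 2 higher without overlap, where 11.2% and 8.81% of all genes were.

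Of 27 measured genes listed as regulators of cyclin D1 transcription, HMGA2 passed the test as lower and none as higher, where 0.597% of all genes passed. The part of HMGA2 in the fall of CCND1 was not tested. The list had 13 positive and 14 negative values and a median of -0.04. Of the 27 genes, 3 were lower and 2 higher without overlap, where 11.2% and 8.81% of all genes were. HMGA2, a chromatin protein of embryonic and tumour cells, read 6.27, 6.27 and 6.31 in control cells, against 5.36, 4.93 and 5.20 after knockdown. All knockdown values were lower by far more than the spread of the controls, with a log2 fold change of -1.12 ± 0.17 (SE, adjusted p = 0.018). The adjusted p was 0.12 without control replicate 1 0.062, 0.11 and 0.072 without each knockdown array in turn, and 0.085 with all rows tested. Of the AP-1 genes, FOS had -0.56 (adjusted p = 0.23) and was lower without overlap, FOSL1 -0.55 (adjusted p = 0.396) and JUN 0.05 (adjusted p = 0.87). Of the Wnt pathway, CTNNB1, the gene for beta-catenin, had 0.44 (adjusted p = 0.46), and its target and inhibitor AXIN2 -0.31 (adjusted p = 0.44).

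No gene passed among 28 other cyclins and CDKs, 4 other CDK inhibitors, 7 activators and brakes of CDKs, 18 genes for the turnover of cyclins and inhibitors, 19 S phase genes and 19 p53 targets. The other cyclins and CDKs had 18 positive values and a median of 0.20, which was 0.099 without control replicate 3. Cyclin B1, which drives mitosis, had 0.79 (CCNB1, adjusted p = 0.195) and CCNC, a cyclin of the transcription machinery, 0.67 (adjusted p = 0.34). CDKN1C, the gene for p57, had -0.55 (adjusted p = 0.30), and CDKN2D, for p19, -0.18 (adjusted p = 0.64). The mitotic phosphatase gene CDC25C had 0.64 (adjusted p = 0.30) and CCNH, of the CDK-activating kinase, 0.57 (adjusted p = 0.32). Of the turnover genes, GSK3B, whose kinase marks cyclin D1 for export and degradation, had 0.61 (adjusted p = 0.31), and FBXW7, which targets cyclin E1 for degradation, 0.51 (adjusted p = 0.29). Both were highest in knockdown replicate 2.

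The S phase genes, which include many E2F targets, had 12 positive and 7 negative values and a median of 0.11. The balance turned without control replicate 3, to 8 positive and 11 negative with a median of -0.03, and after quantile normalization, with a median of -0.05. The helicase subunit gene MCM4 had 0.66 (adjusted p = 0.26) and the second cyclin E gene, CCNE2, 0.64 (adjusted p = 0.23). These 2 of the 19 genes were higher without overlap, where 8.81% of all genes were. Lower without overlap were 3, where 11.2% of all genes were, namely TYMS (-0.54, adjusted p = 0.18), TK1 (-0.36) and MCM5 (-0.35). Among p53 targets, SFN, the gene for 14-3-3 sigma, had -0.85 (adjusted p = 0.077) and RRM2B, a ribonucleotide reductase subunit gene, 0.84 (adjusted p = 0.07). Both were separated between the groups without overlap, as was TP53INP1 (0.71, adjusted p = 0.14). Of the 19 p53 targets, 2 were thus higher and 1 lower without overlap, where 8.81% and 11.2% of all genes were.

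**Figure D4:**
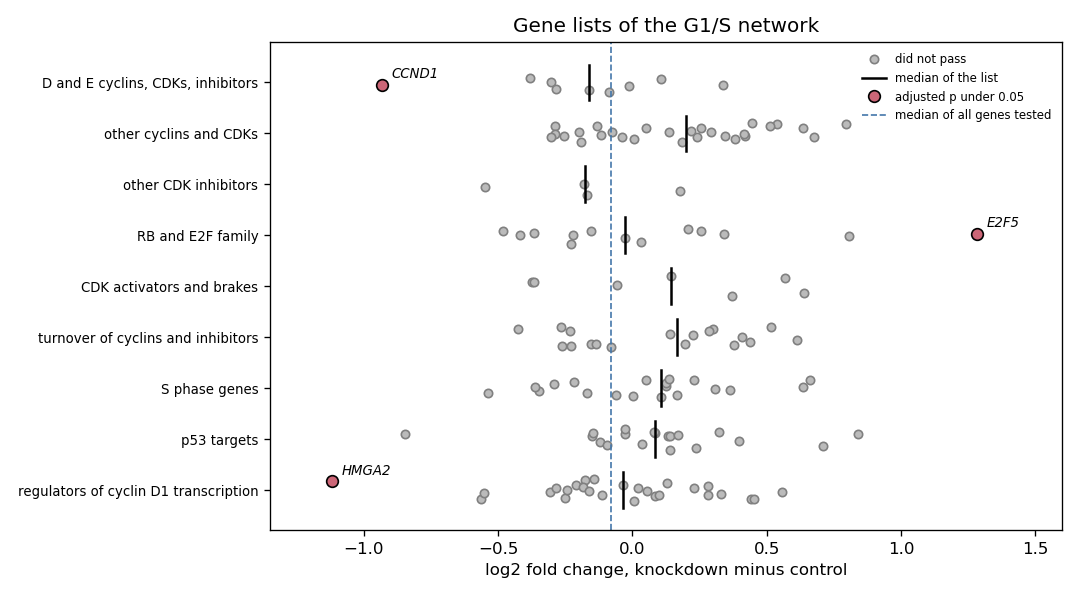
Log2 fold change (horizontal axis) of every measured gene in 8 lists and in the set of 9 genes, with the median of each list (black bar) and of all genes tested (dashed line, -0.08). CCND1 and HMGA2 passed the test as lower and E2F5 as higher, and every other point, in grey, did not pass.

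Chromosome 8, which carries MTDH, also carried 7 of the 143 measured genes of the network, E2F5, CCNE2, MCM4, RRM2B, MYC, COPS5 and TP53INP1, and none of the 10 genes above. All 7 had positive log2 fold changes, with a median of 0.66, and 6 were higher in all knockdown arrays without overlap, with MYC (0.28) the exception. The 136 network genes elsewhere had a median of 0.01 and 10 of them were higher without overlap. Over all genes the medians were 0.09 on chromosome 8 and -0.08 elsewhere. Higher without overlap were 199 of 522 genes of chromosome 8 and 1053 of 13683 genes elsewhere, where 8.81% of all genes tested were. The 522 genes of chromosome 8 ran from -1.615 to 1.496 and cover the whole chromosome, whose arms were not separated here. How far the 7 network genes stand above the genes around them was therefore not tested. The part of the chromosome in these values was not tested.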

How the data were processed

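Values came from the table the authors deposited, with 1 log2 expression value per transcript cluster and array, made with Partek Genomics Suite per the study's methods. The version, the background correction and how arrays were normalized were not given in the sources used here, so the log2 scale was read from the values and the centring is unknown. The column medians were 4.70, 4.65 and 4.82 for control and 4.67, 4.57 and 4.68 for knockdown replicates 1 to 3. Of 22011 rows, 14432 had 1 gene symbol in the platform annotation, 2408 several and 5171 none. Rows with 1 symbol were used, the brightest per gene, and their symbols were unchanged by RefSeq (GRCh38.p14), which gave gene order. The files name no build.

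Groups were compared with limma 3.58.1 in R 4.3.3, with Benjamini-Hochberg adjustment over 14232 genes, 95% intervals from the moderated fit, and exact permutation tests for pairs of related genes. The pair of CDK4 and CDK6 could not be compared, since CDK4 has no cluster of its own. The fit was tested on simulated data. The number of arrays limits the precision. Low signals are compressed, and no detection values were used.

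The genes and lists were chosen with earlier results of these data known. Named from each list were up to 4 genes that passed or the 2 largest log2 fold changes. RB1, E2F1, E2F7, TFDP2, FOS, FOSL1, JUN, CTNNB1, AXIN2, CDKN2B, CDKN2A-AS1, AKAP9, GATAD1, SAMD9, ANO1, MRGPRF, FADD, EPCAM and CDH1 and the genes of chromosome 8 were added after their values were seen. So were TYMS, TK1 and MCM5. Alternatives were averaging the clusters of each gene, testing every row, leaving out the lowest 30% of genes, quantile normalization, median centring, an intensity trend with robust prior, array weights (gene by gene, since the default estimate did not converge), the replicate number as a block, and leaving out each array.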

Additional observations from a re-analysis of the deposited data

How the results depend on the processing

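Of the 9 genes, 1 passed (CCND1), and 0 passed with all rows tested or with columns centred on their median. The count was 0 to 1 with any 1 array left out, being 0 without control replicate 1 and without each of the knockdown replicates. Over all genes 85 passed, of which 53 were higher. The count was 19 with all rows, 48 (29 higher) with median centring, 757 with array weights and 12 to 233 with 1 array left out, lowest without control replicate 1 and highest without control replicate 2. It was 20, 22 and 20 without knockdown replicates 1, 2 and 3. Quantile normalization gave 61, of which 29 were higher. Signs near 0 turned for CCND3 (0.0098) and CDKN1B (0.086) with median centring and for CCNE1 (0.0071) with array weights. With 1 array left out CCND3 ran from -0.19 to 0.075, CDKN1A from -0.0016 to 0.21 and CDKN1B from -0.18 to 0.085. Beyond fewer arrays or more rows tested, the cause was not tested.

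With the replicate number as a block, 364 genes passed and CCND1 was the 1 of the 9 genes that did (adjusted p = 0.023). The labels do not say whether arrays of the same number form pairs. The deviations of same-numbered arrays from their group means correlated at -0.098, 0.47 and 0.31 across genes. Those of differently numbered arrays correlated at -0.489 to 0.232, so that these values do not settle the pairing. The log2 fold changes of CDK2, CDK6 and CDKN2A kept their sign and did not pass under any alternative listed. The same held for CCND2 except that leaving out the lowest 30% of genes removed it, so that it has no value there. Without detection values, the signal of CCND2 could not be set against background.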
